A study of Mus musculus with 58 samples.

Results

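Replication-dependent histone genes supply the histones that package newly copied DNA. They were taken here as every gene of the count tables whose mouse symbol starts with Hist1h, Hist2h, Hist3h or Hist4h and is not marked as a pseudogene by its symbol, which gave 69 of the 55376 genes counted. The 69 genes comprised 6 linker histone H1, 20 H2A, 18 H2B, 12 H3 and 13 H4 genes. Of these, 56 lay in the Hist1 cluster on chromosome 13, 10 in the Hist2 cluster on chromosome 3, 2 in the Hist3 cluster on chromosome 11 and 1, Hist4h4, alone on chromosome 6. The annotation lists 2 of them, Hist1h2aj and Hist1h2al, as pseudogenes, and they were kept.

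The study asked how caloric restriction (CR) and its withdrawal act on haematopoietic stem cells (HSCs), the bone marrow cells from which all blood lineages arise, in male C57BL/6 mice. Mice aged 24 to 26 months were fed ad lib for life (OAL, n = 4), kept on 40% CR since early adulthood (OCR, n = 4) or returned from that restriction to ad lib feeding for 4 weeks (OCRRF, n = 2). Mice aged 3 to 4 months were fed ad lib (YAL, n = 4), restricted in steps to 40% for a short term (YCR, n = 4) or given ad lib food again over 4 weeks once that had ended (YCRRF, n = 4). Their HSCs were sorted as Lin- Sca-1+ c-Kit+ CD34- Flk2- CD150+ cells. In a second experiment HSCs of aged mice were transduced with lentiviral shRNAs against Kdr (GFP_Kdr, n = 4) or against Kdr and Bmpr1a together (Double_KdrBmpr, n = 4, of which 2 carried Bmpr1a shRNA1 and 2 carried shRNA2), or with scramble controls (GFP_Scramble, n = 2, and Double_Scramble, n = 2). These cells were transplanted into lethally irradiated young female CD45.1 recipients, so the host marrow was ablated, and were sorted again as donor LSK CD48- CD150+ cells carrying the reporters. Every transplanted group, scramble included, had thus been cultured, transduced and transplanted. Nothing in the labels ties a library to one animal, so the p-values measure the spread between these libraries.

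Most mRNAs end in a poly(A) tail, but those of replication-dependent histone genes end just after a short stem-loop. The stem-loop is bound by Slbp, the 3′ end is cut by a complex that contains U7 snRNA, and transcription is driven by Npat, so that these mRNAs rise as cells copy their DNA and fall when copying ends. Some of the genes also carry a polyadenylation signal further downstream and can yield polyadenylated mRNA outside of S phase. HSCs are mostly quiescent. For these genes the library kit therefore matters: the labels name a total RNA kit, whereas the methods name SMART-Seq kits, of different products for the restricted mice and for the transplanted cells, and it was not settled here whether poly(A) tails were needed for a read. Levels are therefore compared only within an experiment.

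The stem-loop was searched in the mm10 genome as the letters GGNNC, TTTT and NAGNNCC in direct succession, where N is any base, within 100 bases after the stop codon, on the coding strand only. It was found in 63 of the 69 genes, 21 to 58 bases after the stop codon, and in 3 of 21600 other coding genes searched in the same way (0.0139%). It was not found in Hist2h2be, Hist1h2an, Hist1h3g and Hist1h4a. Hist1h2aj and Hist1h2al, annotated as pseudogenes, were not searched, since the search began at stop codons of protein-coding transcripts. One loop, that of Hist1h2ab, was shared by 41 genes of the H1, H2A, H2B and H3 types, and 12 H4 genes carried 1 of 3 forms with other stem bases. The loops of the 8 genes that differed between OCR and OAL are given with 5 bases on each side, and the 16 bases of the stem-loop are in capitals.
Hist1h2ab: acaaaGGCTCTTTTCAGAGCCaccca
Hist1h2ae: acaaaGGCTCTTTTCAGAGCCattca
Hist2h2ac: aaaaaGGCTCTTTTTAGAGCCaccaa
Hist1h1a: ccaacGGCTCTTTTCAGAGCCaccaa
Hist1h1b: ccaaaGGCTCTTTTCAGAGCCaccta
Hist1h2bc: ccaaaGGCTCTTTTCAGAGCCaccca
Hist1h4i: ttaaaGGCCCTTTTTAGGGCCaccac
Hist3h2a: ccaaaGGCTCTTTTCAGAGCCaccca
These loops lie at chr13:23751572-23751587 (+) in Hist1h2ab, chr13:23570668-23570683 (-) in Hist1h2ae, chr3:96220418-96220433 (-) in Hist2h2ac, chr13:23764392-23764407 (+) in Hist1h1a, chr13:21779837-21779852 (-) in Hist1h1b, chr13:23684647-23684662 (+) in Hist1h2bc, chr13:22040966-22040981 (-) in Hist1h4i and chr11:58955172-58955187 (+) in Hist3h2a. Hist3h2a, the gene of this set that was lower in OCR, carried the same 16 bases as 5 of the other 7.

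The genes differed in how far their annotated transcript runs beyond the loop. In 41 genes the annotated 3′ end lay within 200 bases of the loop, as in Hist1h2ab (11 bases past it), Hist2h2ac (57) and Hist1h2ae (151). In 22 genes it lay further downstream, as in Hist1h4i (330), Hist1h4d (770), Hist1h1c (840), Hist3h2a (1643) and Hist1h2bc, whose annotated end is 8246 genomic bases beyond the loop. The 6 genes without a loop match were kept apart.

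The promoters showed type-specific motifs that the choice of genes did not use. RefSeq gave a promoter of 300 bases (250 before to 50 after the start, GRCm38.p6, the mm10 build) for 62 of the 69 genes, and motifs were searched on both strands. The octamer ATTTGCAT, the site of Oct factors, was in 7 of 18 H2A and 6 of 16 H2B promoters and in none of the H1, H3 and H4 promoters, against 1.75% of all 27025 promoters. CCAAT was in every H1, H2A, H2B and H3 promoter, in 3 of 12 H4 promoters and in 37.9% of all promoters. The TATA letters TATAAA were in 35 of the 62 (56.5%) and in 14.2% of all. The letters GAGGAAGT, a PU.1 site, were in 0 of the 62 and in 3.28% of all. Shown are the promoters of the 3 H2A genes that were higher in OCR and lower after refeeding, and that of Hist1h3e, at which PU.1 peaks were found, each 5′ to 3′ on the strand of its gene, with octamer, CCAAT and TATA letters on either strand in capitals.
Hist1h2ab: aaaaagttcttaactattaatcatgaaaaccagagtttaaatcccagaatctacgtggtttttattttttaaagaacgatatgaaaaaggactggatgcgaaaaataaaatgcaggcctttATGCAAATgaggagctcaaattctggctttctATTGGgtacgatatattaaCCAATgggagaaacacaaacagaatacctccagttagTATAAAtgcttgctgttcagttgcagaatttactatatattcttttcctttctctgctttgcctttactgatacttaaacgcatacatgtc
Hist1h2ae: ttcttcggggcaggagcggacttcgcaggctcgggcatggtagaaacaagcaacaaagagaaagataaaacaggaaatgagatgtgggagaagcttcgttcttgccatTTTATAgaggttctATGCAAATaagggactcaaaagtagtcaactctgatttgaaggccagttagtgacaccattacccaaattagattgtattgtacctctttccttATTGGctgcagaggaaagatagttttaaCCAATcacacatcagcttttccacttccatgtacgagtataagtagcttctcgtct
Hist2h2ac: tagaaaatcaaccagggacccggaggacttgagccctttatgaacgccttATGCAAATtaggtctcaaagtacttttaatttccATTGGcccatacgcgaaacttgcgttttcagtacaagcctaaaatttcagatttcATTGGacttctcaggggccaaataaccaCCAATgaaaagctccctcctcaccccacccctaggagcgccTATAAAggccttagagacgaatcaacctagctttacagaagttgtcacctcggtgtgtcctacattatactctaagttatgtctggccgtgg
Hist1h3e: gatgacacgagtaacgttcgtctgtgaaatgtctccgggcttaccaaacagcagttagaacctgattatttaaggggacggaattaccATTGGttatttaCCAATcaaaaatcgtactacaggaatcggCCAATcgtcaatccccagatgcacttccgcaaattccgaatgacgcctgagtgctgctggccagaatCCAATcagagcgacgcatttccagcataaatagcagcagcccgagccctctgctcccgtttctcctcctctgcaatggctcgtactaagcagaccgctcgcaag
They span chr13:23750838-23751137 (+), chr13:23571171-23571470 (-), chr3:96220831-96221130 (-) and chr13:23562336-23562635 (-), respectively. The 3 H2A promoters each held an octamer, and that of Hist1h3e held CCAAT only. RefSeq gave no promoter for Hist1h2bc.

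The diet libraries held 11102898 to 36579392 counts and the transplanted ones 35657999 to 44780217. The histone genes took 1506 to 11721 of the counts in a diet library (0.01158 to 0.03495%) and 5591 to 10101 in a transplanted one, so most single genes rested on few reads. The authors' treatment of reads that map to several genes is not given in the sources used here, and 36 of the 69 genes share at least 50% of their 50-base windows with another gene. In Hist1h2ab the share was 58.0%, in Hist2h2ac 55.0%, in Hist1h2ae 43.2%, in Hist1h2bc 32.0%, in Hist3h2a 31.5%, in Hist1h4i 28.9% and in Hist1h1a and Hist1h1b 0%, so the division of reads among the first of these and their near copies is uncertain. As a measure of reads from no active gene, the odorant, vomeronasal and trace amine receptor genes (1987 genes, silent in blood) together took 549 to 767 CPM (the usual library-size scaled counts) in OAL, 581 to 1189 in OCR, 1095 and 1401 in OCRRF, 120 to 240 in YAL, 73.2 to 503 in YCR and 154 to 580 in YCRRF, but 23.3 to 43.8 in the transplanted libraries. Per kb of exon, 50 of the 69 histone genes lay above the 95th percentile of these receptor genes in the diet libraries and 64 in the transplanted ones. Taken by group, each against its own receptor genes, this held for 34 in OAL, 47 in OCR and 30 in OCRRF. In the young groups it held for 49 in YAL, 47 in YCR and 51 in YCRRF. The third YCRRF library stood apart, with 414 CPM over all histone genes against 138 to 168 in the other 3, and with 437 CPM of the small nuclear RNA Rn7sk against 16.8 to 75.4 in every other diet library.

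Few genes made up most of the histone mRNA counted. Per kb of exon, the highest levels over the diet libraries were those of Hist1h4d (34.8 CPM per kb), Hist1h2bc (22.8), Hist1h1c (14.8), Hist1h2ae (10.5), Hist1h1e (8.60), Hist1h4i (5.80), Hist3h2ba (5.68) and Hist3h2a (5.60). In the transplanted libraries the order was led by Hist1h2ae (45.5 CPM per kb), Hist1h2bc (26.8), Hist1h4d (18.9) and Hist1h1c (10.9). In CPM summed over all members, the 2 highest genes held 37.6%, the 6 highest 73.6% and the 12 highest 89.1% in the diet libraries. H1 genes made up 26.4%, H2A 14.8%, H2B 28.9%, H3 2.02% and H4 27.9% of that sum. These shares, and those given below by distance from the loop, are not scaled by exon length. That length ran from 312 bases in Hist1h4k to 7425 in Hist1h1d. The shares also depend on how reads common to several genes were counted, which is not known. The highest H3 genes, Hist1h3d and Hist1h3e, stayed near 1 CPM or below in most libraries. A mean of at least 1 CPM was reached by 17 genes, of which 11 were annotated past the loop, and 17 had a mean under 0.1 CPM. The 22 genes annotated past the loop held 79.0% of the summed CPM in the diet libraries and 57.9% in the transplanted ones, the 41 ending near it 14.2% and 34.8%, and the 6 without a loop match 6.78% and 7.24%. The kits and the experiment cannot be told apart in that difference. The testis genes Hist1h1t, Hist1h2ba and Hist1h2aa had 54, 17 and 26 reads over the 22 diet libraries and 4, 1 and 0 over the 12 transplanted ones. Hist4h4, the single gene on chromosome 6, had 776 and 422 reads, and read 0.973 to 1.38 CPM in OAL and 0.632 to 1.33 in OCR. Hist2h3c1, which shares 100% of its windows with other genes, had 0 reads in all 34, and Hist1h2al had 0 in the transplanted libraries.

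**Figure D1:**
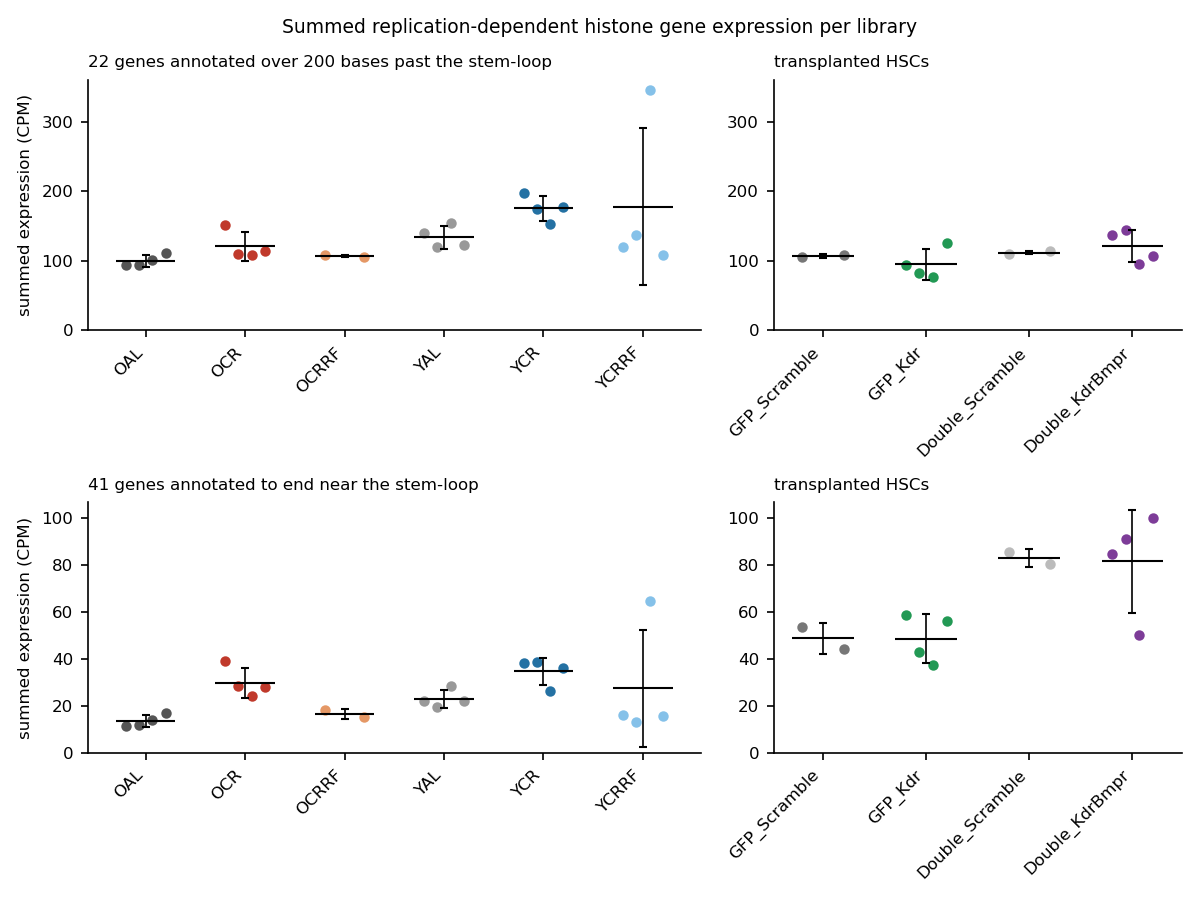
Summed CPM per library (points) with the mean ± SD of each group (bars), for the 22 genes annotated more than 200 bases past the stem-loop and the 41 ending near it, in the 6 diet groups and the 4 transplanted groups. For the genes ending near the loop, the OCR libraries (24.0 to 39.0 CPM) sit above the OAL libraries (11.2 to 16.9 CPM), and the third YCRRF library stands apart at 64.8 CPM.

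Under lifelong CR, some histone genes of the H1, H2A, H2B and H4 types were higher. None of the 4 tested H3 genes passed the test, although all 4 had positive fold changes. The H1 genes together gave 32.8 to 40.1 CPM in OAL and 32.6 to 53.3 in OCR, so their ranges overlapped. Relative to OAL, 7 genes were higher in OCR HSCs and 1, an H2A gene, was lower. The 41 genes ending near the stem-loop together gave 11.2, 11.9, 13.9 and 16.9 CPM in the 4 OAL libraries and 39.0, 28.3, 24.0 and 28.1 in the 4 OCR libraries, so each restricted library lay above each ad lib library. The 22 genes annotated past the loop gave 93.9, 93.8, 101 and 112 CPM in OAL and 152, 109, 109 and 114 in OCR, where the ranges overlapped. In bulk libraries of sorted cells a larger number of cells that make histone mRNA and more histone mRNA per cell cannot be told apart.

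Of the 69 genes, 29 had enough counts to be tested, and 8 passed edgeR's quasi-likelihood test at a Benjamini-Hochberg adjusted p below 0.05 over all 27150 genes tested with a fold change above 1.2. Over all genes the call rate was 5.57%, with 2.54% higher and 3.03% lower. The count of tested members is itself set by level, and a gene can pass the filter through OCR alone. Without any filter on counts, 55 of the 66 members with a read in either group had a higher mean in OCR (83.3%), against 69.0% of the receptor genes and 55.7% of all genes. The median log2 fold change of the 29 was 0.68 and that of all genes 0.02. OCR libraries lay wholly above OAL libraries in 11 of the 29 genes (37.9%, against 4.24% of all genes) and wholly below in 1 (3.45%, against 7.13%). With the normalization factors taken from genes above 5 CPM, the 1511 calls over all genes shifted from 689 higher and 822 lower to 894 higher and 698 lower of 1592, and 8 histone genes were called with either.

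Among the H2A genes, which encode a core histone of the nucleosome, 3 of 5 tested were higher and 1 was lower. Hist1h2ab read 0.0575, 0.570, 0.449 and 0.730 CPM in OAL and 3.04, 1.55, 1.55 and 2.28 CPM in OCR. Its log2 fold change was 2.24 ± 0.42 (SE), with an adjusted p of 0.000752 in edgeR's quasi-likelihood test. Each OCR library held more than the highest OAL library, and the lowest value was that of the first OAL library. Hist1h2ae, the highest H2A gene per kb, read 3.50, 3.86, 4.46 and 6.11 CPM in OAL and 17.9, 12.2, 7.94 and 9.41 in OCR. Its log2 fold change was 1.42 ± 0.21 (adjusted p = 3.0e-05, edgeR). The OCR libraries varied more among themselves than the OAL libraries, with the first OCR library the highest. Hist2h2ac read 0.977, 0.507, 0.449 and 0.608 CPM in OAL and 1.96, 2.1, 1.78 and 1.08 in OCR, a log2 fold change of 1.45 ± 0.34 (adjusted p = 0.00809, edgeR). Its groups did not overlap, although the first OAL and the fourth OCR library lay close to each other.

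Hist3h2a moved the other way. It encodes an H2A protein from the small Hist3 cluster on chromosome 11 (chr11:58954685-58956830, + strand). It read 10.9, 12.3, 10.9 and 10.7 CPM in OAL and 8.01, 6.06, 6.43 and 9.35 in OCR, a log2 fold change of -0.57 ± 0.15 (adjusted p = 0.0227, edgeR). Every OCR library was below every OAL library. The call was lost without OCR replicate 2 (adjusted p = 0.0952), OCR replicate 3 (0.0606), OAL replicate 2 (0.106) or OAL replicate 4 (0.0561), and with the receptor gene level as a covariate (0.0783), over a range of log2 fold changes from -0.70 to -0.48.

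Of the linker histones, which bind DNA between nucleosomes, 2 of 5 tested were higher. Hist1h1b (H1.5) read 0.460, 0.887, 1.09 and 0.852 CPM in OAL and 3.58, 2.87, 2.55 and 1.86 in OCR, a log2 fold change of 1.74 ± 0.30 (adjusted p = 0.000281, edgeR). Hist1h1a (H1.1) read 0.373, 0.317, 0.321 and 0.365 CPM in OAL and 1.52, 0.575, 0.969 and 0.779 in OCR, 1.48 ± 0.43 on the log2 scale (adjusted p = 0.0404, edgeR). In both genes each OCR library exceeded each OAL library. The call of Hist1h1a was kept only without OCR replicate 2 among the 8 fits that left out a library, and its adjusted p reached 0.255 without OCR replicate 1. The 2 most abundant linker histone genes, Hist1h1c (H1.2) and Hist1h1e (H1.4), did not pass: Hist1h1c read 17.0, 20.3, 18.4 and 21.7 CPM in OAL and 19.2, 15.5, 15.5 and 15.3 in OCR (log2 fold change -0.23 ± 0.12, adjusted p = 0.373, edgeR), and Hist1h1e differed by 0.27 ± 0.20 (adjusted p = 0.585, edgeR).

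One of 7 H2B genes tested and 1 of 8 H4 genes passed, both higher, and none of 4 H3 genes. Hist1h2bc, the most abundant H2B gene, read 14.2, 12.8, 17.6 and 15.2 CPM in OAL and 33.0, 28.7, 22.3 and 28.2 in OCR. Its log2 fold change was 0.93 ± 0.13 (adjusted p = 1.0e-05, edgeR), and the groups were well apart. Hist1h4i read 2.5, 2.34, 3.02 and 2.65 CPM in OAL and 5.22, 5.34, 3.94 and 5.16 in OCR, 0.92 ± 0.20 on the log2 scale (adjusted p = 0.00326, edgeR), again without overlap. The most abundant H4 gene, Hist1h4d, missed the threshold, with 24.2, 25.2, 23.9 and 33.0 CPM in OAL and 42.0, 31.1, 34.0 and 29.0 in OCR (0.37 ± 0.12, adjusted p = 0.0695, edgeR). Hist2h2be, an H2B gene without a loop match, differed by 0.20 ± 0.14 (adjusted p = 0.544, edgeR). The H3 genes Hist1h3d and Hist1h3e differed by 0.60 ± 0.36 and 0.37 ± 0.43 (adjusted p = 0.465 and 0.767, edgeR).

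**Figure D2:**
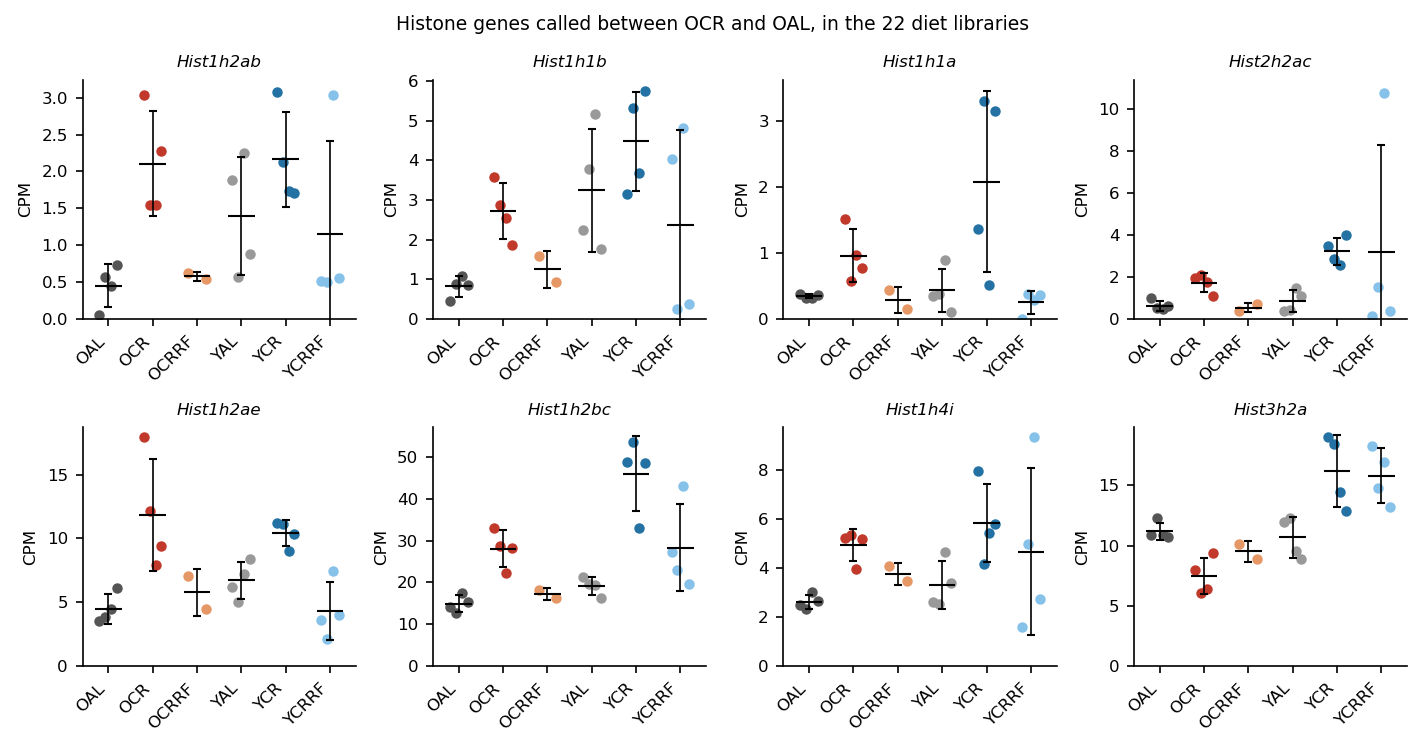
CPM of the 8 histone genes that differed between OCR and OAL, in each of the 22 diet libraries (points) with the mean ± SD of each group (bars). In OCR, 7 genes lie above OAL and Hist3h2a lies below it (6.06 to 9.35 against 10.7 to 12.3 CPM).

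The genes that act on histone mRNA and on new histones were read from lists of their own. Slbp, which binds the stem-loop, read 80.3, 68.0, 74.9 and 69.2 CPM in OAL and 127, 121, 97.7 and 107 in OCR (log2 fold change 0.65 ± 0.09, adjusted p = 1.5e-05, edgeR). Of 15 tested genes of histone mRNA transcription and processing (17 listed), Slbp and Srrt, a cap-complex factor, rose and none fell, and Npat did not pass (0.25 ± 0.09, adjusted p = 0.145, edgeR). Of 19 histone chaperones, 6 rose and none fell, led by Asf1b, which hands H3 and H4 to the assembly machinery (1.36), Nasp, a chaperone of H1 and H3 (0.97), and Tonsl, which binds new H4 (0.94). Of 11 replacement histones, which lie outside the clusters and several of which are also made outside of S phase, 5 rose, among them the centromeric H3 Cenpa (1.01), H2afx (0.75), whose gene also holds a stem-loop match, and H2afz (0.50), H3f3b fell by 0.32 on the log2 scale, and H1f0 did not pass (-0.005). Of 42 S phase genes found in the tables (43 listed, of which Slbp, Nasp, Casp8ap2 and Chaf1b are also on a list above), 37 rose and none fell, between 0.32 and 1.65, with a median of 0.86. The S phase genes together took 2187 to 2434 CPM in OAL and 3257 to 4328 in OCR.

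Markers of other cells were read beside these changes. Of 8 erythroid markers the haemoglobin genes Hbb-bs and Hba-a1 fell by 2.22 and 2.17 and Epor rose by 0.91 on the log2 scale, and the list summed to 45.1 to 218 CPM in OAL and 51.1 to 86.7 in OCR. Of 8 myeloid markers Prtn3 fell by 0.41 and was the only one called, while the other 7 had positive fold changes, 2 of them at an unadjusted p below 0.05, for a list median of 0.41. The list summed to 257 to 360.3 CPM in OAL and 230.1 to 297 in OCR. None of 8 lymphoid markers (8.49 to 11.2 and 7.93 to 13.8 CPM) and none of 4 progenitor markers (231 to 278 and 209.1 to 283 CPM) passed. Of 8 stem cell markers Procr, Fgd5 and Ly6a fell by 0.46, 0.50 and 0.47, and the list summed to 3064 to 3576 CPM in OAL and 2791 to 3321 in OCR. Ctsg, a neutrophil granule gene, was at 0 in at least 1 OAL library, and the other markers had reads in every OAL and OCR library. The part of these cells in the histone differences was not tested. With the receptor gene level as a covariate, 6 histone genes were called.

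After refeeding, 4 histone genes were lower than under CR. OCRRF had 2 libraries, and the comparison shares the OCR libraries with the one above, so the directions in the 2 comparisons are not independent. The genes ending near the loop summed to 18.0 and 15.0 CPM in OCRRF, below each OCR library (24.0 to 39.0), and those annotated past it to 108 and 106 CPM, below OCR (109 to 152) by a small margin. Of 38 histone genes tested, 4 were lower and none higher in OCRRF than in OCR, at a background of 3.41% called over all genes (0.694% higher and 2.71% lower, edgeR). Over all 69, 49 of 66 genes with reads had a lower mean in OCRRF and 17 a higher one (25.8% higher), against 81.0% higher among receptor genes and 63.2% among all genes. The median log2 fold change of the tested histone genes was -0.38, and that of all genes 0.11.

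Of the 4 genes, 3 were H2A genes. Hist1h2ab read 0.618 and 0.536 CPM in OCRRF (log2 fold change against OCR -1.91 ± 0.44, adjusted p = 0.00659, edgeR). Hist2h2ac read 0.371 and 0.689 CPM (-1.78 ± 0.46, adjusted p = 0.0212, edgeR), and Hist1h2ae 7.08 and 4.48 CPM (-1.09 ± 0.25, adjusted p = 0.00718, edgeR). All 3 lay below the lowest OCR library. Hist1h2bc read 18.2 and 16.2 CPM (-0.77 ± 0.16, adjusted p = 0.00296, edgeR), also below every OCR library. OCRRF lay wholly below OCR in 8 of the 38 histone genes tested (21.1%, against 10.8% of all genes). It lay wholly above in 2 (5.26%, against 17.5%). Hist1h1b, at 1.58 and 0.919 CPM, did not pass (-1.16 ± 0.37, adjusted p = 0.0710, edgeR), nor did Hist1h1a (-1.72 ± 0.61, adjusted p = 0.120), Hist1h4i (-0.44 ± 0.26, adjusted p = 0.382) or Hist3h2a, which read 10.2 and 8.92 CPM (0.30 ± 0.21, adjusted p = 0.480). The 4 calls rested on few libraries: none was made without OCRRF replicate 2, and 2 were made without OCRRF replicate 1, each fit leaving 1 refed library that is taken to vary like the others. Normalization from genes above 5 CPM moved the median of all genes from 0.11 to 0.24, changed the calls over all genes from 226 higher and 884 lower to 341 higher and 573 lower, and left 2 histone genes called, Hist1h2ab and Hist1h2bc.

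Slbp read 69.3 and 68.3 CPM in OCRRF and was lower than in OCR (-0.78 ± 0.13, adjusted p = 0.000112, edgeR), as was Npat (-0.46 ± 0.13, adjusted p = 0.0431, edgeR). Of the processing genes 7 of 15 fell, of the chaperones 10 of 19 and of the replacement histones 5 of 11, and no gene of these lists rose. The largest falls were those of Asf1b (-1.65), Nasp (-1.22) and Cenpa (-1.16). Of 42 S phase genes 40 fell and none rose, with a median of -1.08, and they summed to 1930.0 and 2079 CPM. Of 8 erythroid markers 2 rose and 1 fell. Hbb-bs and Hba-a1 rose by 1.56 and 1.66 on the log2 scale, the reverse of their change under CR, and the erythroid sums were 69.3 and 155 CPM. Of 8 lymphoid markers 1 rose, and of 8 stem cell markers 1 rose and 1 fell. No myeloid or progenitor marker was called. The receptor gene sums of 1095 and 1401 CPM were the highest of any diet group apart from 1 OCR library at 1189, and their part in the result was not tested.

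Set against OAL, the refed HSCs had 1 histone gene called of 34 tested, at a background of 4.14% (1.66% higher and 2.48% lower, edgeR). Of 1215 receptor genes tested, 40 were called higher and 0 lower, and 94.2% had a positive fold change. Their part in the histone call was not tested. Hist1h1d (H1.3) read 3.55 and 5.90 CPM in OCRRF and 2.41, 2.66, 2.69 and 2.34 in OAL (0.88 ± 0.25, adjusted p = 0.0497). Both refed libraries lay above all 4 ad lib ones, which held for 7 of the 34 histone genes (20.6%) and 22.8% of all genes tested. The call was lost when any 1 of the 4 OAL libraries was left out, and a fit without 1 OCRRF library leaves 1 refed library. Per kb of exon, Hist1h1d read 0.437 CPM over the diet libraries. The 95th percentile of the receptor genes was 0.201 there, 0.236 in OAL and 0.476 in OCRRF. Normalization from genes above 5 CPM changed the calls over all genes from 528 higher and 788 lower to 754 higher and 54 lower, and the median of all genes from 0.12 to 0.27. Of the S phase genes 5 were lower in OCRRF than in OAL and none was higher.

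**Figure D3:**
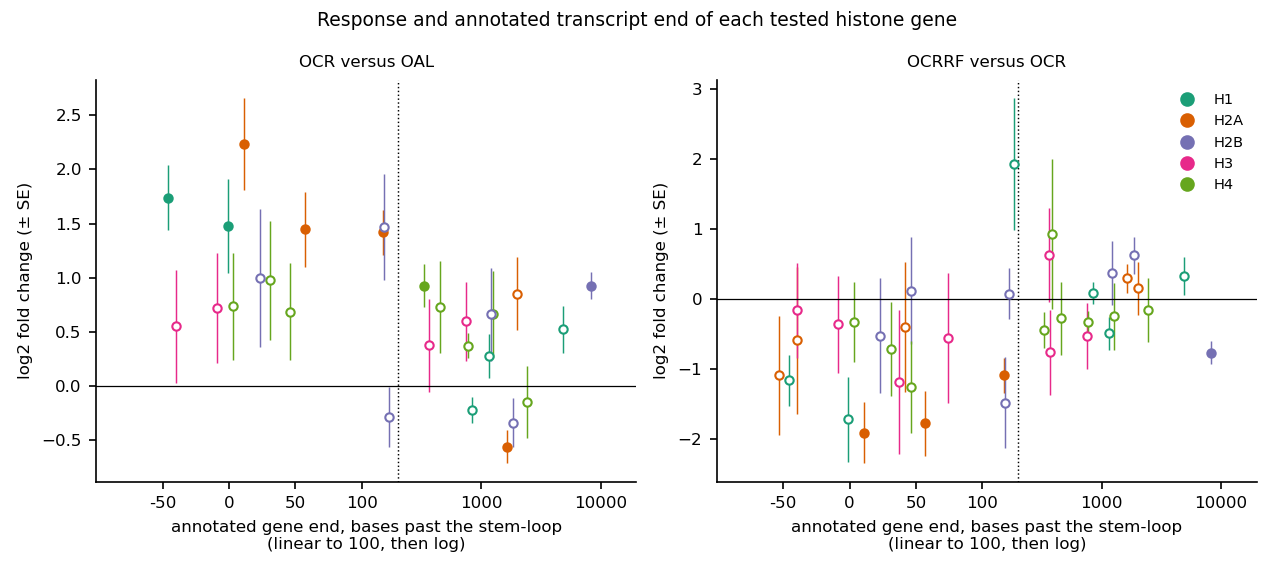
Log2 fold change of each tested histone gene against how far its annotated 3′ end lies past the stem-loop (bases), for OCR versus OAL and OCRRF versus OCR, with bars for the SE, colours for the histone type, filled points for genes that passed the test and a dotted line at 200 bases (the horizontal axis is linear up to 100 bases and logarithmic beyond). Of the 13 tested genes ending near the loop 5 were higher in OCR, and of the 15 annotated past it 2 were higher and 1 lower.

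The tested genes ending near the loop had larger median differences than those annotated past it, as a description and without a test. For OCR versus OAL the median log2 fold change was 0.99 over the 13 tested genes ending near the loop and 0.52 over the 15 annotated past it. After refeeding the medians were -0.65 over 20 genes and -0.16 over 17. Genes ending near the loop were also lower in level, and several share most of their sequence with a near copy. A gene at such levels can pass the count filter through OCR alone, which can enlarge these medians.

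In young mice the short-term restriction gave 1 call. Of 23 histone genes tested, Hist1h2bc alone passed (edgeR), at a background of 0.257% over all genes (0.0642% higher and 0.193% lower). It read 21.3, 19.6, 19.5 and 16.3 CPM in YAL and 48.7, 53.7, 32.9 and 48.5 in YCR, a log2 fold change of 1.28 ± 0.19 (adjusted p = 0.0263), with every YCR library above every YAL library. Among the fits that left out 1 library the adjusted p was below 0.05 only without YCR replicate 3 and lay between 0.0536 and 0.0963 in the other 7, with fold changes from 1.19 to 1.41 over all alternatives. Several genes stood apart between the groups without passing. Hist2h2ac read 0.354, 0.441, 1.46 and 1.10 CPM in YAL and 3.49, 2.84, 2.56 and 4.00 in YCR (1.96 ± 0.60, adjusted p = 0.280, edgeR). Hist1h2ae read 6.20, 5.04, 7.22 and 8.39 CPM in YAL and 11.2, 11.1, 9.00 and 10.4 in YCR (0.65 ± 0.26, adjusted p = 0.452, edgeR). YCR lay wholly above YAL in 6 of the 23 genes (26.1%, against 2.49% of all genes). Hist1h1b (0.49 ± 0.44) and Hist1h4i (0.84 ± 0.37) did not pass either. Genes ending near the loop summed to 19.5 to 28.5 CPM in YAL and 26.2 to 38.6 in YCR, with 1 YCR library inside the YAL range. Of 42 S phase genes none passed (median 0.34), and none of the chaperone, replacement histone or processing genes did. Lymphoid markers summed to 31.0 to 96.7 CPM in YAL and 41.6 to 398 in YCR, higher than in any old group, and their part was not tested.

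Hist3h2a differed in direction between the ages. In young mice it read 12.0, 12.3, 9.53 and 8.89 CPM in YAL and 19.0, 18.4, 14.5 and 12.9 in YCR (0.62 ± 0.23, adjusted p = 0.404, edgeR), so every restricted library was above every ad lib library, whereas in old mice every one was below. The difference of the responses, old minus young, was -1.18 ± 0.28 on the log2 scale, with an unadjusted p of 0.000517 and an adjusted p of 0.191 in edgeR's test over 28328 genes, so it did not pass. DESeq2 called it (adjusted p = 0.00288), and over all alternatives the adjusted p ran up to 0.497. No other histone gene of 36 tested was called for a difference between the ages by either tool, at a background of 0.0424% (0.0177% higher and 0.0247% lower). At an unadjusted p below 0.05 there were 5 of 36 (13.9%, against 8.93% of all genes), among them Hist2h2be (-0.95 ± 0.37, adjusted p = 0.457) and Hist1h1b (1.27 ± 0.58, adjusted p = 0.536).

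**Figure D4:**
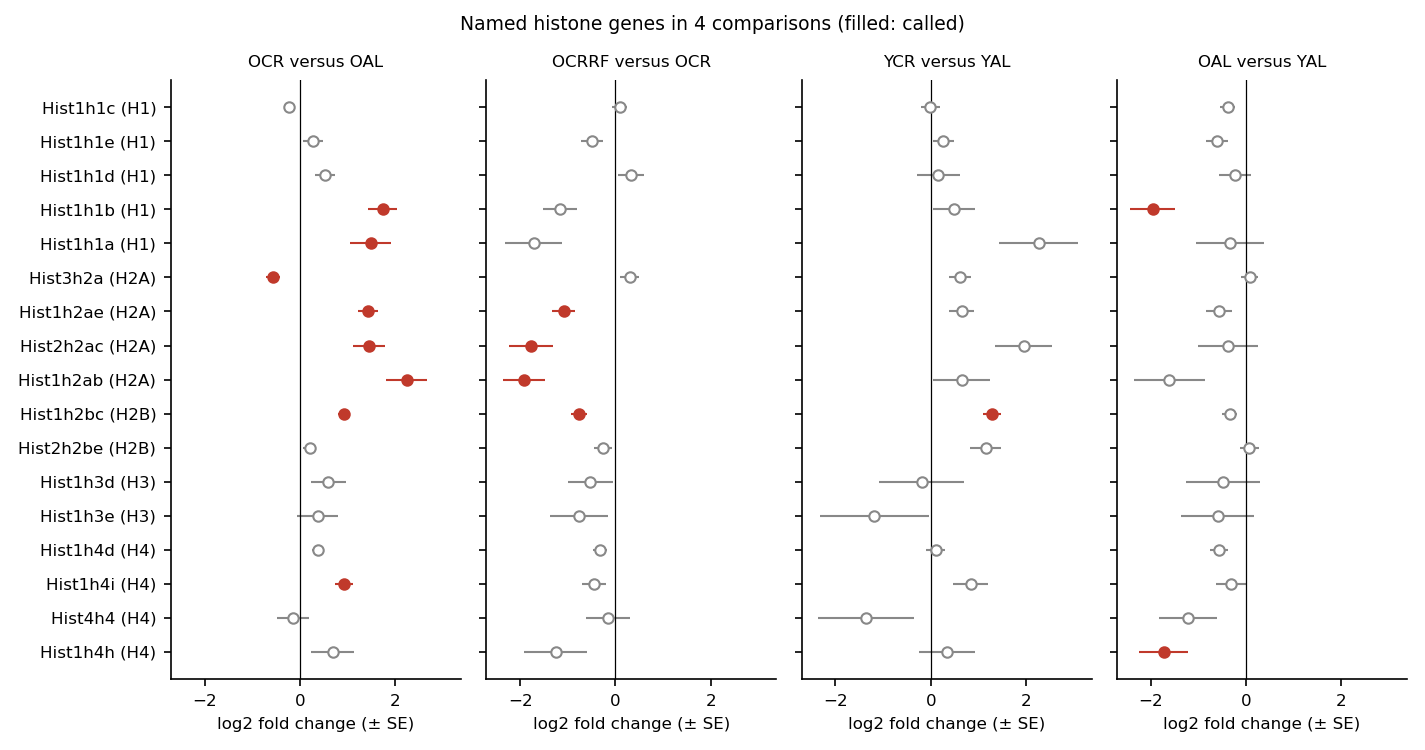
Log2 fold changes of 17 named histone genes in 4 comparisons, with filled points for genes that passed the test and bars for the SE. Hist1h2bc was higher under CR at both ages (0.93 in old and 1.28 in young mice), and Hist3h2a was called lower in old mice only, with a difference between the ages that did not pass (adjusted p = 0.191).

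After refeeding of young mice no histone gene passed. Against YCR, 26 were tested with 0 calls by edgeR and by DESeq2 at a background of 0.0102%. At an unadjusted p below 0.05 there were 3 of 26 (11.5%), against 7.27% of all genes. Against YAL, 26 were tested, 0 were called by edgeR and by DESeq2, and 1, Hist3h2a, had an unadjusted p below 0.05 (0.57 ± 0.26, adjusted p = 0.995), against 3.69% of all genes, at a background of 0.0% called. Hist3h2a read 18.3, 14.8, 16.9 and 13.2 CPM in YCRRF. The spread of the group was wide: genes ending near the loop summed to 16.2, 13.0, 64.8 and 15.6 CPM, the third library being the one that stood apart above. Leaving it out gave no histone call in either comparison.

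In ad lib fed mice, 2 histone genes were lower in the old libraries than in the young ones. The OAL libraries had reads in 42071 to 43972 genes and the YAL libraries in 25936 to 28713. Age cannot be told apart from this difference between the libraries. Of 25 tested in OAL versus YAL, Hist1h1b and Hist1h4h passed (edgeR), at a background of 14.8% over all genes (6.89% higher and 7.93% lower), so the share of histone genes called was below that of all genes. Hist1h1b read 0.460, 0.887, 1.09 and 0.852 CPM in OAL and 2.24, 3.78, 5.17 and 1.76 in YAL (-1.96 ± 0.47, adjusted p = 0.0197). Hist1h4h, an H4 gene, read 0.402, 0.380, 0.449 and 0.365 CPM in OAL and 1.54, 0.945, 1.90 and 0.988 in YAL (-1.73 ± 0.52, adjusted p = 0.0457). In both genes the old libraries lay below all young ones, which held for 3 of the 25 histone genes tested (12.0%, against 12.3% of all genes). The call of Hist1h1b was lost without OAL replicate 1, 2 or 4 (adjusted p = 0.0695, 0.0612 and 0.0639), and that of Hist1h4h was kept only without YAL replicate 2 or 4. Over all 69 genes 45 of 66 had a lower mean in old mice (31.8% higher), whereas 96.1% of receptor genes and 71.7% of all genes had a higher one. The genes ending near the loop summed to 11.2 to 16.9 CPM in OAL and 19.5 to 28.5 in YAL. Under normalization from genes above 5 CPM the calls over all genes went from 1620 higher and 1866 lower to 1872 higher and 784 lower, and the median of all genes from 0.05 to 0.16.

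Slbp was also lower in OAL than in YAL (-0.60 ± 0.11, adjusted p = 0.00583, edgeR), with 111, 133, 93.9 and 109 CPM in YAL. Of 42 S phase genes 28 fell and none rose, with a median of -0.65. Of the chaperones 5 fell, among them Nasp (-0.70) and the CAF-1 subunit Chaf1a (-0.52), and of the replacement histones 4 fell, among them Cenpa (-0.61). All 4 progenitor markers fell, and so did 4 of 8 erythroid markers, 2 of 8 myeloid and 3 of 8 lymphoid ones, while Prtn3 and Cd3e rose. Of 10 listed RNAs without a poly(A) tail, 5 were tested, and Rmrp alone passed, higher in OAL (1.62), with none called between OCR and OAL. The sums were 231 to 278 and 318 to 363 CPM for the progenitor markers and 8.49 to 11.2 and 31.0 to 96.7 CPM for the lymphoid markers in OAL and YAL. Their part in the age difference was not tested.

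Knockdown in transplanted HSCs moved no histone gene past the test. Kdr, which encodes a VEGF receptor and was targeted, read 1.93, 2.21, 3.28 and 2.03 CPM in GFP_Kdr and 6.04 and 6.07 in GFP_Scramble (-1.35 ± 0.25, unadjusted p = 0.000480 and adjusted p = 0.247, edgeR). In the double knockdown it read 1.24, 0.555, 1.60 and 1.35 CPM against 3.97 and 4.62 (-1.86 ± 0.37, adjusted p = 0.272). Bmpr1a, a BMP receptor, read 4.44 and 0.656 CPM with shRNA1 and 2.22 and 0.595 with shRNA2 against 5.21 and 4.43 (-1.29 ± 0.72, adjusted p = 0.602). Kdr was below both scramble libraries in all 8 knockdown libraries, whereas 1 library with Bmpr1a shRNA1 was as high as its controls.

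Of 47 histone genes tested for the Kdr knockdown, 0 were called by edgeR and by DESeq2 and 1, Hist1h3h, had an unadjusted p below 0.05 (2.13%, against 8.90% of all genes), at a background of 0.0149% called. Hist1h3h had 0 counts in both scramble libraries and at most 0.265 CPM in the knockdown ones. Of 53 tested for the double knockdown, 0 were called by edgeR and by DESeq2 and 0 had an unadjusted p below 0.05, against 9.85% of all genes, at a background of 0.00498% called. The most abundant gene there, Hist1h2ae, read 28.5, 18.0, 19.8 and 25.5 CPM in GFP_Kdr and 26.9 and 18.5 in GFP_Scramble (0.02 ± 0.22). In the double knockdown it read 41.4, 44.2, 25.1 and 50.6 CPM against 45.6 and 39.9 (-0.08 ± 0.24). Both scramble values lay inside the knockdown range in either experiment. Hist1h2bc read 31.1, 25.4, 23.1 and 38.8 CPM in GFP_Kdr against 36.5 and 37.2 (-0.32 ± 0.19), and 42.5, 37.0, 24.8 and 19.0 against 26.6 and 29.8 (0.13 ± 0.30) in the double knockdown, where the 2 libraries with shRNA1 were above and the 2 with shRNA2 below the controls. Genes ending near the loop summed to 37.2 to 58.6 CPM in GFP_Kdr, 44.1 and 53.5 in GFP_Scramble, 50.0 to 100.1 in Double_KdrBmpr and 80.3 and 85.7 in Double_Scramble. The S phase genes gave 0 calls in either knockdown, where 3 and 1 of all genes were called. In GFP_Kdr 40 of 42 S phase genes had positive fold changes (95.2%, against 49.6% of all genes), with a median of 0.18. At an unadjusted p below 0.05 (edgeR) 9 were higher and 0 lower. In Double_KdrBmpr 32 of 42 were positive (76.2%, against 49.9% of all genes), with a median of 0.07, and 3 were higher and 0 lower at that p.

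The H3K4me3 signal at the histone promoters varied widely in OCR HSCs, around a median close to that of all promoters. H3K4me3, which marks active starts, was deposited as a mean signal over 750 bases at each start in 2 OCR libraries, and 62 of the 69 genes had a value. Their median was 12.8 and 12.6 in the 2 libraries, against 9.28 and 8.78 over all 30009 windows, and the median gene lay at percentile 53.95 and 54.39. The 19 genes at 1 CPM or more in OCR had medians of 21.0 and 19.8 and the 43 below it 10.9 and 11.0. The level of the mark and the expression per kb had a Spearman correlation of 0.43 over the 62 genes, given as a description, since neighbouring genes share reads and windows. Only Hist2h2ab (42.6, the mean of both libraries) and Hist2h2ac (40.6) passed the 90th percentile in both libraries. Among the genes higher in OCR, Hist1h2bc had 20.4, Hist1h1a 13.7, Hist1h2ae 12.7, Hist1h4i 12.4, Hist1h1b 12.0 and Hist1h2ab 10.5, while Hist3h2a had 37.0. The testis genes were low, with 1.26 in Hist1h1t, 0.448 in Hist1h2ba and 0.305 in Hist1h2aa, and Hist1h2br and Hist1h2bq were listed at 0. The last 2 genes share 90.2% and 99.7% of their exon windows with other genes. The study used uniquely mapped ChIP-seq reads, so these values of 0 were not read as absence of the mark.

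H3K27me3, a mark of silencing by Polycomb, had medians of 0.217 and 0.216 over the 62 genes, below the 0.317 and 0.323 of all windows. Hist1h1b (2.90 and 2.97), Hist3h2ba (3.61 and 3.86) and Hist1h3i (4.15 and 3.77) lay above the 90th percentile of all windows in both libraries. Hist1h1b was thus called higher in OCR while its H3K27me3 signal was high in OCR cells. Its H3K4me3 signal, 11.4 and 12.5, lay at percentile 52.3 and 54.4 of all windows. The marks were read over unlike windows, 750 bases for H3K4me3 and 2000 for H3K27me3. Whether the same cells carried both was not tested. The signals are those of restricted cells only, and the values of other groups were not analysed here.

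**Figure D5:**
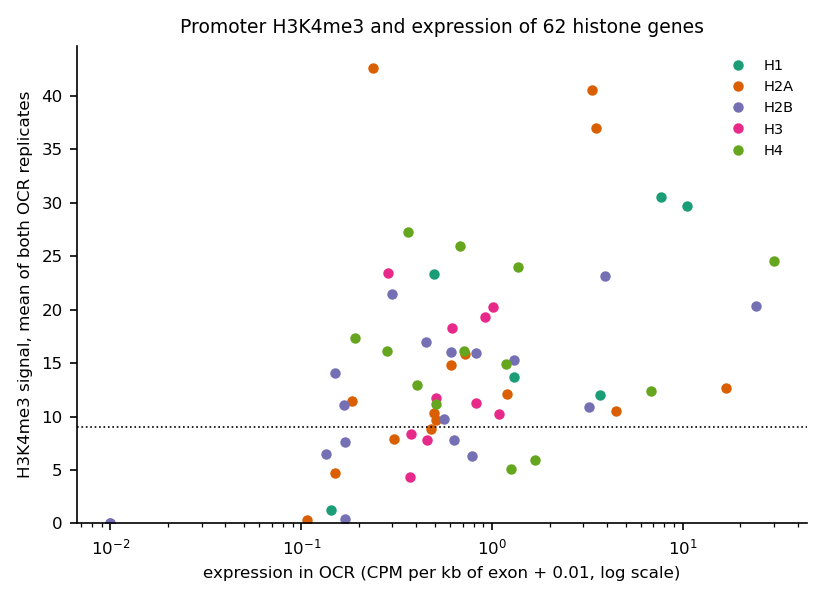
H3K4me3 signal at the promoter (mean of 2 OCR libraries) against expression in OCR (CPM per kb + 0.01, log axis) for 62 histone genes, with the median of all promoter windows as a dotted line. The testis genes lie at the lower left, and Hist2h2ab (42.6) and Hist2h2ac (40.6) have the strongest marks.

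Chromatin accessibility at the histone genes did not differ past the test after refeeding. ATAC-seq counts were compared between 2 OCRRF and 4 OCR libraries over 45 consensus peaks that lay within 1000 bases of the start of 53 histone genes. Of the 45 peaks 0 were called by edgeR (adjusted p below 0.05, with both the fold change and the average log2 CPM over 1.5) and 0 by DESeq2, at a background of 0.221% over 123372 peaks. At an unadjusted p below 0.05 there were 15 of 45 (33.3%, against 11.7% of all peaks), 13 of them higher and 2 lower after refeeding. The median histone peak lay at percentile 92.41 of all consensus peaks by mean CPM, so these shares compare peaks of unlike level. The differences were small, between -0.37 and 0.33 on the log2 scale. The lowest adjusted p, 0.0580, belonged to the peak at Hist1h4d (chr13:23581331-23582037), which read 33.2, 32.7, 31.0 and 39.4 CPM in OCR and 43.1 and 42.8 in OCRRF (0.33 ± 0.09). The peak shared by Hist1h2bc and Hist1h2ac (chr13:23683466-23684950) read 82.3, 82.9, 79.7 and 97.2 CPM in OCR and 103.5 and 99.0 in OCRRF (0.24 ± 0.06, adjusted p = 0.0704). Both refed libraries lay above all restricted ones at these peaks. They had the lowest adjusted p of the 45, and how often other peaks separate in this way was not counted. The mRNA of Hist1h2bc was lower after refeeding, and its relation to the peak was not tested. The peak at Hist1h2ab read 14.4 to 20.2 CPM in OCR and 14.6 and 15.9 in OCRRF (-0.13 ± 0.13, adjusted p = 0.740).

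PU.1, an ETS factor of the myeloid lineage, was profiled by ChIP-seq, and the authors called 2262 to 5464 peaks per library. Between 1 and 3 of the 69 histone genes (1.45 to 4.35%) had a peak within 1000 bases of their start, against 1.08 to 2.66% of all genes and 1.95 to 4.87% of protein-coding genes. In all 6 libraries, 2 each of OAL, OCR and OCRRF, a peak lay within 1000 bases of the start of Hist1h3e, with a fold enrichment between 16.5 and 22.9, and in the first OCR library it spanned chr13:23562297-23562675, which covers the promoter shown above. That promoter did not hold the letters GAGGAAGT, which says only that these letters are not in the window. Hist1h3e read 0.517, 0.570, 0.577 and 0.700 CPM in OAL, 0.918, 0.287, 1.07 and 0.779 in OCR, and 0.680 and 0.230 in OCRRF, and its groups overlapped. One peak near Hist1h3f and Hist1h2bh was present in both OAL libraries (fold enrichment 7.00 and 7.87) and in the second OCR library (5.32), and was in no other library. No peak lay within 1000 bases of any other histone gene, including the 8 that differed between OCR and OAL.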

How the data were processed

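RNA-seq of 22 diet and 12 transplanted HSC libraries was used as the raw count per gene that the authors deposited, made by trimming with cutadapt, mapping to mm10 with STAR and counting with featureCounts. The handling of strand and of reads that map to several genes is not given in the sources used here. A count per ATAC-seq consensus peak was deposited for 4 OCR and 2 OCRRF libraries, after mapping with BWA and peak calling with MACS. For 2 OCR libraries the authors deposited H3K4me3 and H3K27me3 signal per promoter window. PU.1 peaks were deposited per library, as the authors' MACS2 called them, with a score, a fold enrichment and −log10 p and q values. Depth lay between 11102898 and 44780217 gene counts.

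CPM, fold changes and p-values were computed with edgeR 4.0.16 (R 4.3.3, limma 3.58.1), using TMM normalization, edgeR's default expression filter (about 10 counts in as many libraries as the smaller group holds), and the quasi-likelihood test on the libraries of the groups compared. The response of old minus young mice was an interaction term over OAL, OCR, YAL and YCR. A call required a Benjamini-Hochberg adjusted p below 0.05 over all genes and a fold change above 1.2. All fold changes are log2 and their errors SE. The study used DESeq2, which served as an alternative here (1.42.0), beside its size factors, TMM factors from genes above 5 CPM, other filters, each library left out, the replicate number as a block, and the receptor gene level as a covariate. Each test was tried on simulated data first. No columns of unmapped samples were present (0). Library pairs of a group differed by more than sampling noise, so no library was counted as a duplicate. Annotation for lengths and transcript ends was GENCODE for mm10, in an earlier release than the authors', and promoters were those of RefSeq. The histone genes and lists were chosen with earlier results of these data known. Genes were named by rule: the 2 highest of each histone type, those called, the testis and single-locus genes, called list members, Slbp, Npat, H2afz, H1f0 and the targeted genes.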

Additional observations from a re-analysis of the deposited data

Results flagged for a closer look

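In 19 of 126 sets of values tested, each a gene or sum in a group of 4 libraries, the highest or the lowest library stood farther from the others than Dixon's test allows at the 95% level, which chance alone gives in about 1 in 20 groups. The third YCRRF library was the one in 7 of the 19. Its sum over all histone genes was 414.0 CPM against 137.0 to 168.0 in the other 3, with 31.0 CPM of Hist1h1e, 1.55 of Hist1h3e, 159.0 of Hist1h4d, 10.8 of Hist2h2ac, 3.04 of Hist1h2ab and 8.47 of Hist1h1d, each the highest of its group.

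The first OCR library was highest in its group for the sum over all histone genes (203.0 CPM against 145.0 to 152.0), for Hist1h1c (19.2 against 15.3 to 15.5) and for Hist1h1e (25.1 against 10.0 to 12.3). Neither Hist1h1c nor Hist1h1e was called between OCR and OAL. The third OCR library was lowest for Hist1h4i at 3.94 CPM.

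In OAL, the second library was highest for Hist3h2a at 12.3 CPM and the fourth for Hist1h4d at 33.0 CPM. In YAL, the first library was highest for Hist1h3d at 2.66 CPM and the fourth for Hist4h4 at 6.47 CPM. The fourth YCR library was highest for Hist1h1d at 5.23 CPM. Among the transplanted libraries, the fourth GFP_Kdr library was highest for Hist1h1a (1.27 CPM) and Hist4h4 (0.915 CPM), and the second was lowest for Hist2h2be (8.25 CPM).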

How the results depend on the processing

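Between OCR and OAL, 6 to 8 histone genes were called under every alternative run, and 6 to 8 with any 1 library left out. Hist1h1b, Hist1h4i, Hist1h2ae, Hist1h2bc, Hist2h2ac and Hist1h2ab passed in each alternative that gave an adjusted p, and DESeq2 gave none for 17 of the 29 genes. For YCR versus YAL (1 called), DESeq2 and the fit with no filter each called 2, and leaving out 1 library gave 0 to 1. For OCRRF versus OCR (4 called), DESeq2 called 2, factors from genes above 5 CPM 2 and DESeq2 size factors 5, and leaving out 1 library gave 0 to 5. For OCRRF versus OAL (1 called), DESeq2 size factors and no filter each called 2, and every fit without 1 library called 0. For OAL versus YAL (2 called), DESeq2 size factors and factors from genes above 5 CPM each called 1, DESeq2 and no filter each called 3, and leaving out 1 library gave 0 to 4. For the old minus young response DESeq2 called 1, Hist3h2a, against 0. The knockdowns, the YCRRF comparisons and the ATAC peaks gave 0 to 0 calls without any 1 library. No call reversed, and no histone gene with an unadjusted p below 0.05 changed sign under any alternative, while genes above it did, as in GFP_Kdr (9 of 47 with the replicate block) and YCRRF versus YAL (3 of 26). The causes were not tested.

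Libraries with the same replicate number did not deviate together, with correlations between -0.24 and 0.0926. With the replicate block, 7 histone genes were called between OCR and OAL, 7 between OCRRF and OCR, and 0 for YCR versus YAL, OCRRF versus OAL and OAL versus YAL. It moved the median log2 fold change of the tested histone genes from 0.30 to -0.25 in YCRRF versus YAL and from 0.09 to -0.01 in GFP_Kdr.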
